A study of Mus musculus with 2 samples.

Results

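Natural killer (NK) cells of the nephritic kidney were described in WT and *Vsir-/-* mice by single-cell RNA sequencing. The members were all cells that the deposited annotation placed in the NK cluster, which were 661 of 7314 cells. Of these, 594 came from the WT library (5470 cells) and 67 from the *Vsir-/-* library (1844 cells). Both libraries came from kidneys of 8-week-old C57BL/6 mice with nephrotoxic nephritis, a glomerular injury model. The animals had received 200 μg of sheep IgG in Freund's complete adjuvant and, 4 days later, by the labels, 2 μL/g of sheep nephrotoxic serum into a vein (the methods of the study give a higher dose of serum), so no uninjured kidney was compared. The genotypes differed in *Vsir*, the gene of the immune checkpoint VISTA. By their labels, the WT library held sorted CD45+ cells and the *Vsir-/-* library held kidney cells of all kinds, whereas the methods of the study describe CD45+ sorting without separating the genotypes. Only 1 library was sequenced per genotype, so no difference between genotypes could be tested. The intervals given are 95% intervals that cover counting error only.

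NK cells are innate lymphocytes that kill stressed or infected cells without antigen-specific receptors. They release perforin and granzymes, and they secrete IFN-γ and chemokines that recruit and activate myeloid cells and T cells. Their response is set by activating and inhibitory receptors, many of which, including the Ly49 receptors encoded by the *Klra* genes in mice, recognize MHC class I. In the kidney, NK cells are a resident and recruited source of IFN-γ.

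Features of the libraries other than genotype came first. *Xist*, the noncoding RNA of the inactive X chromosome, had 0 UMIs (unique molecular identifiers, each counting 1 captured transcript) in the WT library and 16405 in the *Vsir-/-* library. The 4 Y-linked genes *Ddx3y*, *Eif2s3y*, *Kdm5d* and *Uty* together had 5175 UMIs in the WT library and 0 in the *Vsir-/-* library. Among NK cells, *Xist* was found in 56 of 67 *Vsir-/-* cells and in 0 of 594 WT cells, and a Y-linked transcript in 325 WT cells and 0 *Vsir-/-* cells. The WT library thus carried male transcripts and the *Vsir-/-* library female transcripts, although the methods state that all mice were male. Sex, sorting and genotype cannot be told apart in any comparison that follows. The libraries also named some genes differently: 131 pairs of older and newer symbols had UMIs in the WT library under 1 name and in the *Vsir-/-* library under the other. The NK receptor gene *Cd244* was such a case, with 173 counts per 1000000 UMIs (CPM) in WT NK cells under that name and 122 CPM in *Vsir-/-* NK cells under *Cd244a*. The libraries shared 5 cell barcodes, 1 of which belonged to a WT NK cell and none to a *Vsir-/-* NK cell.

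The target of the deletion followed the labels. *Vsir* had 219 UMIs in WT NK cells, or 58.3 CPM (interval 50.8 to 66.5), and was detected in 156 of 594 cells. It had 0 UMIs in the 67 *Vsir-/-* NK cells, which was at least 9.84-fold lower, taking 3 UMIs over the group as the limit that a count of 0 allows. The whole *Vsir-/-* library held 8 *Vsir* UMIs, against 4278 in the WT library.

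NK cells made up 10.9% of the WT library (interval 10.0 to 11.7) and 3.63% of the *Vsir-/-* library (interval 2.83 to 4.59). The gap was narrower among cells with a UMI of *Ptprc*, the gene of CD45, at 11.4% and 4.93%. Within the lymphocyte clusters the shares were 14.8% (interval 13.7 to 15.9) and 7.67% (interval 6.00 to 9.64). The share was therefore lower in the *Vsir-/-* library under every denominator tried, but the libraries had been collected differently by their labels. The libraries held 32799550 (WT) and 18601189 UMIs (*Vsir-/-*) in all. Median depth per NK cell was 5491.5 UMIs in WT and 5472 in *Vsir-/-* cells, with 14 WT and 0 *Vsir-/-* NK cells under 1000 UMIs. The summed depth was 3758550 and 506883 UMIs, so the *Vsir-/-* values are the less precise ones.

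The cluster name was borne out by the markers *Ncr1* and *Klrb1c* (the receptors NKp46 and NK1.1), *Klre1* (a lectin-like receptor), *Prf1* (perforin) and *Gzmb* (granzyme B). Every NK cell held a UMI of at least 1 of the 5, and 587 of 594 WT cells and 66 of 67 *Vsir-/-* cells held 3 or more. After thinning to 1000 UMIs, 67.6% of WT and 44.8% of *Vsir-/-* NK cells held 3 or more, against 0% of B cells of either library. Effector memory-like CD8+ T cells held 3 or more in 32.5% of WT cells (149 of 197 before thinning) and 3.57% of *Vsir-/-* cells. The number of markers alone thus did not separate WT NK cells from these T cells, of which 98.5% held a UMI of *Cd3d*, *Cd3e* or *Cd3g*. *Ncr1* was at 702 CPM in WT NK cells and 552 CPM in *Vsir-/-* NK cells. It was at 4.59 and 0 CPM in B cells, which should lack it. The proportion of cells with 3 or more markers was 0.310% of WT B cells and 0 of 88 *Vsir-/-* B cells, with medians of 3426 and 3596.5 UMIs per cell. All 5 markers were somewhat lower in *Vsir-/-* NK cells, with log2 ratios between -0.59 for *Klrb1c* and -0.17 for *Gzmb*. With the profile of all other *Vsir-/-* cells subtracted until tubule transcripts had their WT share, the direction turned for *Ncr1* (0.24), *Klre1* (0.21), *Prf1* (0.31) and *Gzmb* (0.41). That step removed 37.9% of the *Vsir-/-* NK UMIs. It raised the ratios of genes far higher in NK cells than in other cells together, by about the same amount. These turns, and later ones in such genes, therefore describe that common rise and not single genes.

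**Figure D1:**
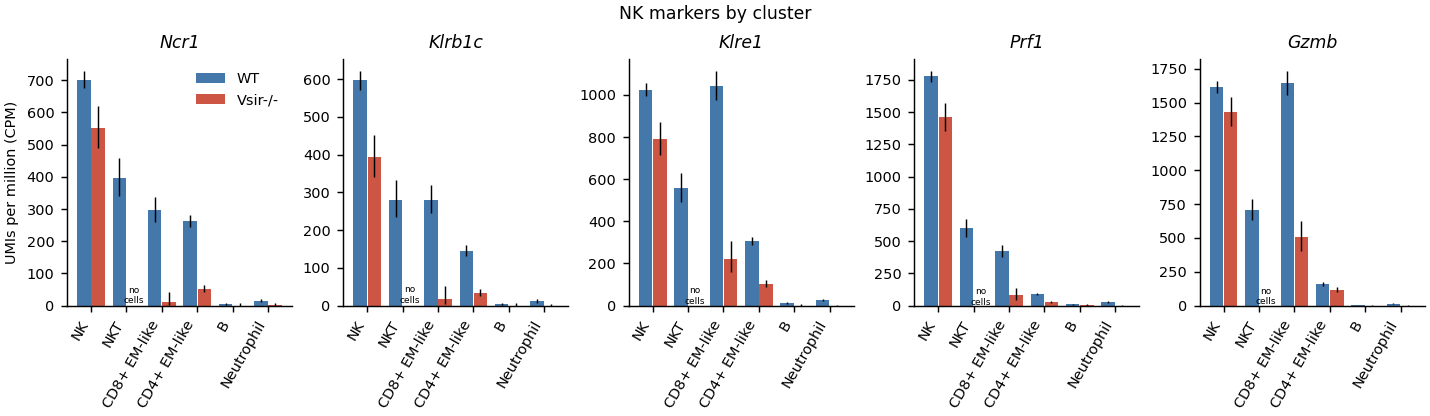
Levels of 5 NK markers (CPM, y axes from 0) in NK cells and 5 other clusters of the WT and *Vsir-/-* libraries, with 95% counting intervals. *Ncr1*, *Klrb1c* and *Prf1* are highest in NK cells of both libraries, *Klre1* and *Gzmb* in WT EM-like CD8+ T cells reach the WT NK level (1042 and 1645 CPM), and the NKT cluster has no *Vsir-/-* cells.

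The clusters most like NK cells differed between the libraries. In WT mice the effector memory-like (EM-like) CD8+ T cells carried NK transcripts at high levels, with *Klre1* at 1042 CPM, *Klra7* at 1067 CPM and *Ncr1* at 296 CPM. In *Vsir-/-* mice this cluster held 28 cells, with *Klre1* at 223 CPM and 2 UMIs each of *Klra7* and *Ncr1*. The NKT cluster, with 94 WT cells and 0 *Vsir-/-* cells, had intermediate levels, such as 397 CPM of *Ncr1* and 598 CPM of *Prf1*. T cell receptor complex transcripts were found in the WT NK cluster. A UMI of *Cd3d*, *Cd3e* or *Cd3g* was present in 28.6% of WT NK cells (interval 25.01 to 32.44) and 10.4% of *Vsir-/-* NK cells (interval 4.30 to 20.3). With each cell thinned to 1000 UMIs, the proportions were 13.1% and 5.97%. WT neutrophils, which should lack these genes, were at 19.1% before thinning (median 3565 UMIs per cell) and 9.15% after it, and *Vsir-/-* neutrophils (median 4097 UMIs per cell) were at 5.06% and 1.31%. B cells, which should lack them too, were lower. WT B cells (median 3426 UMIs per cell) were at 7.95% and 2.85%, and *Vsir-/-* B cells (median 3596.5) at 1.14% and 0%.

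Of the 15 genes with the highest ratio of NK cells over all other cells in a library, 6 were shared. They were *Klra8*, *Klra4* and *Klra3* (Ly49 receptors), *Cma1* (a mast cell and NK protease), *Prf1* and *Gzma* (granzyme A). *Klra8*, the activating receptor Ly49H, led in WT mice at 43.7-fold over other cells (interval 39.7 to 48.3), followed by *Phactr3* at 42.6-fold and *Cma1* at 41.0-fold. *Cma1* led in *Vsir-/-* mice at 231-fold (interval 161 to 351), followed by *Klra4* at 167-fold and *Prf1* at 138-fold. The level of *Cma1* in all other cells was 11.2 CPM in the WT library and 1.77 CPM in the *Vsir-/-* library. As clusters were made from these genes, the ratios are descriptions.

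Across genes, NK cells of the genotypes were alike for the most part. Of 4904 genes with at least 100 UMIs over both libraries, 173 (3.53%) were at least 2-fold higher and 168 (3.43%) at least 2-fold lower in *Vsir-/-* NK cells, with a median log2 ratio of 0.00. The counting interval lay above 0 for 672 of them (13.7%) and below 0 for 624 (12.7%), and such intervals are narrower the more UMIs a gene has. As WT NK cells held 3758550 UMIs and *Vsir-/-* NK cells 506883, a gene could reach 100 UMIs through WT cells alone. Such were *Il7r* (113 and 0 UMIs), *Cd3e* (198 and 0), *Klra6* (213 and 1) and *Slamf6* (100 and 3), which count as lower in the lists below. Genes present mainly in *Vsir-/-* NK cells needed a higher CPM to be measured. The balance of 2-fold calls depended on the filter, with 380 higher and 109 lower when genes were kept by their mean CPM, and 101 and 310 without the cell with the most UMIs of each gene. All 12 genes with the smallest ratio had 0 UMIs in the whole *Vsir-/-* library, and 10 of the 12 with the largest had 0 in the whole WT library, among them the renamed pair *Aes* and *Tle5*. After leaving out genes with no UMIs in 1 whole library and joining renamed pairs, 159 of 4883 genes (3.26%) were 2-fold higher and 121 (2.48%) 2-fold lower. Of the 159, 48 were also 2-fold higher in both B cells and neutrophils of *Vsir-/-* mice. Of 119 lower genes, which leave out the renamed pairs, 37 were also 2-fold lower in both. Among 2149 NK-enriched genes, defined as genes with at least the CPM of all other cells in each library, 64 (2.98%) were 2-fold higher and 52 (2.42%) lower, and among the 2113 of these with UMIs in both libraries 58 (2.74%) were higher and 22 (1.04%) lower.

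**Figure D2:**
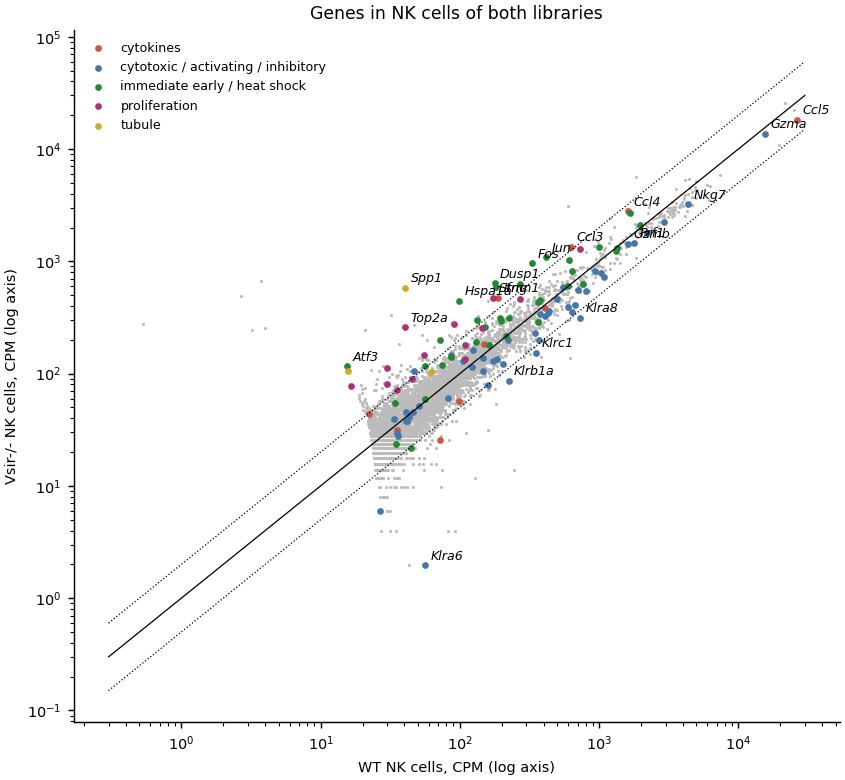
CPM of each measured gene with UMIs in both NK groups, WT on the x axis and *Vsir-/-* on the y axis (log axes), with lines at equality and at 2-fold. *Ifng*, *Ccl3*, *Fos*, *Jun*, *Dusp1*, *Hspa1a* and *Top2a* lie above the 2-fold line, *Klra8*, *Klrc1* and *Klrb1a* below it.

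Cytokine and chemokine genes were among those that differed. Of 17 listed genes, 10 were measured, 2 were at least 2-fold higher (*Ifng*, *Ccl3*) and 1 at least 2-fold lower (*Ccl9*) in *Vsir-/-* NK cells, against 3.53% and 3.43% of all genes. The median log2 ratio of the list was 0.10, and it ranged from -0.091 without cells holding a *Cd3d*, *Cd3e* or *Cd3g* UMI to 0.80 after thinning to 1000 UMIs. The sequences upstream of the 2 higher genes are shown from RefSeq (GRCm38.p6), because genes of the AP-1 and NF-κB pathways differed beside them. Each covers the 250 bases before the transcription start, 5′ to 3′ on the gene's strand, and capitals mark a TATA box (TATAAA).
Ifng promoter, chr10:118440796-118441045, plus strand: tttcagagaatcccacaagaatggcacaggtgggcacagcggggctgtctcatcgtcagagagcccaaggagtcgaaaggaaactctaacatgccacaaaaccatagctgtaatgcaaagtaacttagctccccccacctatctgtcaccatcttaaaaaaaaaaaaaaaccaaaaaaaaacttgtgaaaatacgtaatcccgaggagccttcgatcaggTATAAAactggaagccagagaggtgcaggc
Ccl3 promoter, chr11:83649379-83649628, minus strand: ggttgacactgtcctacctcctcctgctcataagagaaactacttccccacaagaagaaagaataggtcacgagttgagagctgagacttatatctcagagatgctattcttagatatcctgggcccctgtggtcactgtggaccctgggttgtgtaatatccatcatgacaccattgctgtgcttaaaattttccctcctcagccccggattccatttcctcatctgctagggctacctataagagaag
On both strands, neither window held the AP-1 letters TGANTCA (in 6.75% of 32851 promoter windows of this length) or the NF-κB letters GGGA and TTTCC with 1 base of any kind between them (0.356%). The *Ifng* window held TATAAA once, beginning 30 bases before the start, as did 12.4% of windows in any position. A match or its absence in this window describes the letters and no binding.

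*Ifng*, the gene of IFN-γ, was at 188 CPM in WT NK cells and 475 CPM in *Vsir-/-* NK cells, a log2 ratio of 1.34 (interval 1.12 to 1.55). Cells with an *Ifng* UMI were 252 of 594 (42.4%, interval 38.4 to 46.5) and 51 of 67 (76.1%, interval 64.1 to 85.7), and after thinning to 2000 UMIs they were 22.1% and 50.8%. B cells of the WT and *Vsir-/-* libraries held 4.31 and 1.91 CPM. *Ccl3*, the gene of the myeloid chemoattractant MIP-1α, was at 626 and 1345 CPM, a log2 ratio of 1.10 (interval 0.98 to 1.23). It was just short of 2-fold without cells holding a *Cd3d*, *Cd3e* or *Cd3g* UMI (0.92) and without the cell with the most *Ccl3* UMIs in each library (0.9975). Cells with a *Ccl3* UMI were 46.2% and 50.8% after thinning to 2000 UMIs and 31.6% and 47.8% after thinning to 1000, and cells with 10 or more UMIs of 2000 were 2.17% and 9.23%.

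*Ccl4* (MIP-1β), a close relative of *Ccl3*, was short of 2-fold, at 1612 CPM in WT and 2807 CPM in *Vsir-/-* NK cells (log2 ratio 0.80, interval 0.72 to 0.88), but was past 2-fold under 5 of 18 alternatives (highest 1.32). Thinned cells with 10 or more *Ccl4* UMIs were 10.1% and 30.8%. *Ccl5* (RANTES), the most abundant transcript of the list, had the opposite direction, at 26556 CPM in WT and 18196 CPM in *Vsir-/-* NK cells (log2 ratio -0.55, interval -0.58 to -0.51). After the subtraction, which raised genes far higher in NK cells than in other cells together, its log2 ratio was 0.03. It was detected in every NK cell of both libraries. *Xcl1* (lymphotactin), which attracts cross-presenting dendritic cells, was at 409 and 383 CPM, and its interval included no difference (log2 ratio -0.09, interval -0.32 to 0.12). A single WT cell held 27.0% of all WT *Xcl1* UMIs, and the log2 ratio ranged from -0.64 to 0.90 over 18 alternatives, of which 11 kept its sign. *Ccl9* was at 72.1 and 25.7 CPM, but was detected in only 66 WT and 5 *Vsir-/-* NK cells.

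**Figure D3:**
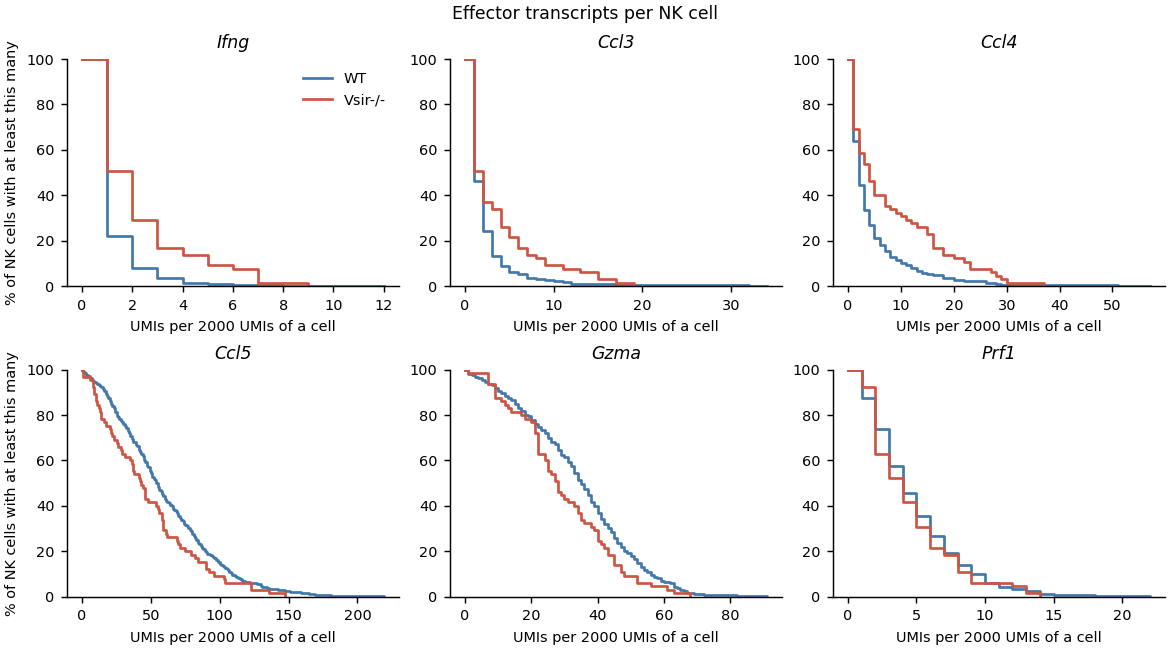
Share of NK cells (y axis, percent) with at least the number of UMIs on the x axis, after thinning each cell to 2000 UMIs (552 WT and 65 *Vsir-/-* cells). The *Vsir-/-* curves lie above WT for *Ifng*, *Ccl3* and *Ccl4* through most of the range, below it for *Ccl5* and most of *Gzma*, and the *Prf1* curves run close together.

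T cells had higher *Ifng* in *Vsir-/-* mice, but not higher *Ccl3*. Among EM-like CD8+ T cells the levels of *Ifng* were 171 (WT) and 1295 CPM (*Vsir-/-*), and those of *Ccl3* were 256 and 54.2 CPM. Among EM-like CD4+ T cells they were 175 and 444 CPM for *Ifng*, and 182 and 94.5 CPM for *Ccl3*. NK transcripts in these T cell clusters moved with *Ccl3*: in EM-like CD4+ cells *Ncr1* was at 262 and 52.0 CPM and *Klre1* at 306 and 102 CPM, and their part in the *Ccl3* values was not tested. The *Vsir-/-* value of *Ccl3* in EM-like CD8+ cells rested on 9 UMIs. NK cells held 28.4% of all *Ccl3* UMIs of the WT library and 21.7% of those of the *Vsir-/-* library, although NK cells were fewer in the latter. The shares fell further for *Ifng* (35.8% and 16.4%) and *Ccl4* (38.3% and 16.9%).

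Cytotoxic genes mostly differed by less than 2-fold. Of 25 listed genes, 17 were measured, 1 was at least 2-fold higher and 0 at least 2-fold lower (3.53% and 3.43% of all genes). The intervals of 6 lay below 0 and of 2 above it (12.7% and 13.7% of all genes), and the median log2 ratio was -0.12. After the subtraction described for the markers, this median turned to 0.23 and the log2 ratio of *Gzma* to 0.41. As for the markers, these turns describe the common rise and nothing particular to cytotoxic genes. *Gzma* was at 15587 CPM in WT and 13759 CPM in *Vsir-/-* NK cells (log2 ratio -0.18, interval -0.22 to -0.14). *Prf1* was at 1777 and 1460 CPM (log2 ratio -0.28, interval -0.40 to -0.17), and *Gzmb* at 1615 and 1432 CPM (log2 ratio -0.17, interval -0.29 to -0.06). For *Gzmb*, 1 *Vsir-/-* cell contributed 20.5% of the UMIs, and without the top cell of each library the log2 ratio was -0.47. *Nkg7*, a granule membrane gene, was at 4363 and 3235 CPM (log2 ratio -0.43). *Fasl*, the death ligand, was at 123 and 114 CPM, with an interval that included no difference. The gene past 2-fold was *Lamp2*, a lysosomal membrane gene that most cells express (47.1 and 105 CPM, log2 ratio 1.16), and its direction turned after the subtraction (-1.64). *Lamp1*, whose product marks degranulation when it reaches the surface, was at 86.7 and 146 CPM (log2 ratio 0.76).

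Activating receptors and their adaptors were mostly lower. Of 22 listed genes, 19 were measured, 0 were at least 2-fold higher and 3 at least 2-fold lower (*Klra8*, *Klrb1a*, *Slamf6*; 3.43% of all genes), and the intervals of 13 lay below 0, against 12.7% of all genes. The median log2 ratio was -0.43, and -0.0063 after the same subtraction. In EM-like CD4+ and CD8+ T cells the median of the list was -1.58 and -2.39 (16 and 12 measured genes). *Klra8* was at 732 CPM in WT and 316 CPM in *Vsir-/-* NK cells (log2 ratio -1.21, interval -1.45 to -0.98). It was short of 2-fold under 4 of 18 alternatives, including the subtraction (-0.62) and leaving out cells with 2 or more mitotic genes (-0.65). *Klra4* (Ly49D), another activating Ly49 gene, was at 552 and 586 CPM, with an interval of the log2 ratio from -0.09 to 0.26. *Klrb1a* (NKR-P1A) was at 224 and 86.8 CPM (log2 ratio -1.35), and was short of 2-fold under 3 of 18 alternatives (nearest to 0 at -0.75). The stress ligand receptor *Klrk1* (NKG2D) was at 803 and 545 CPM (log2 ratio -0.56), and its adaptor *Hcst* at 671 and 408 CPM (log2 ratio -0.71). *Tyrobp*, the adaptor DAP12, was at 2906 and 2221 CPM (log2 ratio -0.39).

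Inhibitory receptors showed lower values too. Of 23 listed genes, which included *Vsir* itself, 14 were measured, 0 were at least 2-fold higher and 4 at least 2-fold lower (*Klra1*, *Klra6*, *Klrc1* and the deleted gene *Vsir*), against 3.43% of all genes. The median log2 ratio was -0.58, and -0.086 after the subtraction. In EM-like CD4+ and CD8+ T cells the median of this list was -1.28 and -3.04 (16 and 9 measured genes). *Klrc1* (NKG2A) was at 352 and 154 CPM (log2 ratio -1.19, interval -1.54 to -0.86, and -0.62 after the subtraction), and its partner *Klrd1* (CD94) at 1093 and 728 CPM (log2 ratio -0.58). *Klra6* had 213 UMIs in 78 WT NK cells and 1 UMI in *Vsir-/-* NK cells. *Klra7* (Ly49G) was at 643 and 353 CPM (log2 ratio -0.86), and *Klra9* (Ly49I) at 438 and 361 CPM (log2 ratio -0.28). *Klrb1b* was the inhibitory gene with an interval above 0, at 125 and 162 CPM. The checkpoint genes *Tigit*, *Pdcd1*, *Havcr2*, *Lag3* and *Ctla4* had under 50 UMIs each in NK cells of either library. The *Klra* genes lie in 1 family of near-identical copies, so their reads may have been divided between members, and mouse strains differ in them. The number of 6 Ly49 genes (*Klra1*, *Klra3*, *Klra4*, *Klra7*, *Klra8*, *Klra9*) detected in a thinned cell had a median of 2 in both libraries, and 44.4% of WT and 35.4% of *Vsir-/-* cells held 3 or more.

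Genes of mature and of less mature NK cells were both lower more often than higher. The intervals of 7 of 12 genes of mature NK cells and of 6 of 11 measured genes of less mature NK cells lay below 0 (12.7% of all genes), those of 0 lay above it, and the median log2 ratios were -0.28 and -0.33. *Itgam* (CD11b), gained as NK cells mature, was at 214 and 185 CPM, and *Cd27*, lost at the end of maturation, at 54.5 and 29.6 CPM. Cells with *Itgam* and no *Cd27* UMI were 51.2% of WT and 56.7% of *Vsir-/-* NK cells, and cells with *Cd27* alone were 9.60% and 8.96%. After thinning to 2000 UMIs the order of the first turned, at 32.8% and 26.2%, and cells with *Cd27* alone were 7.07% and 4.62%. Of 12 genes of mature NK cells, 12 were measured, and 0 were higher and 2 lower by 2-fold (3.53% and 3.43% of all genes). These were *Ly6c2* (608 and 300 CPM, but short of 2-fold under 5 of 18 alternatives, nearest to 0 at -0.58) and *S1pr1*, a receptor for exit from tissue (36.7 and 11.8 CPM). *Zeb2*, a regulator of terminal maturation, was just short of 2-fold, at 576 and 292 CPM (log2 ratio -0.98). Of 12 genes of immature or less mature NK cells, 11 were measured, 0 were higher and 3 lower by 2-fold (3.53% and 3.43% of all genes). These were *Tcf7* (74.0 and 13.8 CPM), *Emb* (87.5 and 37.5 CPM) and *Il7r*, the interleukin-7 receptor, with 113 UMIs in WT and 0 in *Vsir-/-* NK cells. *Il7r* thus counted as measured through WT cells alone. *Tcf7* and *Il7r* are also T cell genes, and T cell transcripts moved in the same direction. Of 11 T cell genes, 6 were measured and 5 of these were at least 2-fold lower (3.43% of all genes), including *Cd3d* (110 and 29.6 CPM) and *Cd3e* (52.7 and 0 CPM). The T cell list summed to 1191 CPM in WT NK cells and to 481 CPM in *Vsir-/-* NK cells, its most abundant gene was *Trbc2* in WT NK cells and *Trbc1* in *Vsir-/-* NK cells, and 6 of its genes were at 0 in the latter. Restricted to cells with no UMI of *Cd3d*, *Cd3e* or *Cd3g*, the log2 ratio of *Tcf7* was -1.26, and after thinning to 1000 UMIs it was -0.75.

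Lineage transcription factors mostly differed by less than 2-fold. *Eomes*, which marks conventional NK cells, was at 156 and 176 CPM (log2 ratio 0.18, interval -0.17 to 0.49), and *Id2* at 956 and 921 CPM. *Tbx21* (T-bet) was lower in *Vsir-/-* NK cells, at 179 and 118 CPM (log2 ratio -0.59). *Bhlhe40*, a factor for cytokine production in lymphocytes, was higher, at 273 and 450 CPM (log2 ratio 0.72, interval 0.51 to 0.93). Of 23 factors, 18 were measured, 0 were higher and 1 (*Tcf7*) lower by 2-fold (3.53% and 3.43% of all genes), and the intervals of 7 lay below 0 and of 2 above it. Residency genes were scarce, since 3 of 16 were measured: *Il7r*, 2-fold lower as above, *Itga1* (CD49a; 24.2 and 45.4 CPM) and *Il21r* (24.7 and 19.7 CPM). Of 27 receptor and signaling genes for cytokines, 21 were measured, 0 were higher and 1 (*Il7r*) lower by 2-fold, and the intervals of 6 lay below 0 and of 3 above it, with *Il2rb* at 719 and 621 CPM and *Il18rap* at 340 and 253 CPM. Of 17 trafficking genes, 14 were measured, 0 were higher and 1 (*S1pr1*) lower by 2-fold, and the intervals of 7 lay below 0 and of 1 above it, against 12.7% and 13.7% of all genes.

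Immediate early genes, which are transcribed within minutes of a signal or of cell handling, were higher in *Vsir-/-* NK cells. Of 28 listed genes, 25 were measured, 7 were at least 2-fold higher and 0 at least 2-fold lower (3.53% and 3.43% of all genes), and the intervals of 16 lay above 0, against 13.7% of all genes. The median log2 ratio was 0.47. The AP-1 subunits *Fos* (331 and 959 CPM) and *Jun* (414 and 1087 CPM) had log2 ratios of 1.53 and 1.39. The phosphatase gene *Dusp1* was at 178 and 635 CPM (log2 ratio 1.84), the stress factor *Atf3* at 15.4 and 116 CPM (log2 ratio 2.91, and 0.73 after the subtraction), and the NF-κB inhibitor *Nfkbia* at 270 and 633 CPM (log2 ratio 1.23). *Egr1* and *Nfkbiz* were the other 2. *Jund*, *Dusp5* and *Btg1* had intervals that included no difference, and the 3 genes with intervals below 0 were *Nr4a3* (44.4 and 21.7 CPM), *Cd69* (363 and 288 CPM) and *Btg2* (765 and 623 CPM). Heat shock genes had the same direction. Of 11, 10 were measured, 3 were at least 2-fold higher (3.53% of all genes), and the median log2 ratio was 0.71. *Hspa1a* was at 98.4 and 446 CPM and was found in 17.2% and 49.3% of cells, *Hspa1b* was at 181 and 596 CPM, and *Dnajb1*, their cochaperone, at 134 and 300 CPM.

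This difference was not shared by all clusters. The median log2 ratio of the immediate early list was 0.75 in EM-like CD4+ and 0.60 in EM-like CD8+ T cells, and it was -0.63 in B cells and -0.54 in neutrophils. For the heat shock list these medians were 1.24, 0.48, 0.31 and 0.01. The part of tissue dissociation and sorting in these values was not tested. Genes of the mitochondrial genome were likewise higher, with a median log2 ratio of 0.43 over 13 genes and no gene past 2-fold. Their medians were above 0 in the other clusters too: 0.32 in EM-like CD4+ and 0.39 in EM-like CD8+ T cells, 0.14 in B cells and 1.53 in neutrophils. The median share of mitochondrial UMIs per NK cell was 2.12% in WT and 2.97% in *Vsir-/-* mice.

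Proliferation genes were higher in *Vsir-/-* NK cells. Of 20 listed genes, 14 were measured, 8 were at least 2-fold higher and 0 at least 2-fold lower (3.53% and 3.43% of all genes), and the median log2 ratio was 1.20. *Top2a*, a topoisomerase of dividing cells, was at 40.4 and 258 CPM (log2 ratio 2.68, interval 2.33 to 3.02). The replication clamp *Pcna* was at 90.5 and 276 CPM, and the microtubule regulator *Stmn1* at 173 and 475 CPM. Cells with UMIs of 2 or more of 7 mitotic genes (*Top2a*, *Mki67*, *Birc5*, *Cdk1*, *Ccna2*, *Ccnb1*, *Ccnb2*) were 40 of 594 WT NK cells (6.73%, interval 4.85 to 9.06) and 15 of 67 *Vsir-/-* NK cells (22.4%, interval 13.1 to 34.2). These cells had median depths of 12540.5 and 12306 UMIs. After thinning to 1000 UMIs, 2 cells of each library remained above this limit, so the thinned shares were 0.345% and 2.99%. In B cells the shares before thinning were 0.206% and 5.68%, and after it 0.106% and 4.17%. The 5 NK cells with the most proliferation UMIs held 50.7% of them in the *Vsir-/-* and 14.6% in the WT library. As 5 cells are a larger part of 67 than of 594, these shares do not compare how concentrated the UMIs were. Without the cells holding 2 or more mitotic genes the median of the list was 0.26 and the log2 ratio of *Top2a* was also 0.26. The study kept further dividing cells in a cluster of their own (118 WT and 189 *Vsir-/-* cells), and part of these carried NK transcripts. *Ncr1* was found in 66 WT (55.9%) and 12 *Vsir-/-* cells (6.35%) of that cluster, and *Klre1* in 86 and 16. The cluster held 12.6% of the *Ncr1* UMIs of the WT library and 16.2% of those of the *Vsir-/-* library. The values above leave these cells out, and their part in the difference was not tested.

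Interferon-stimulated and MHC class I genes mostly differed by less than 2-fold. Of 25 interferon-stimulated genes, 13 were measured and 0 were past 2-fold in either direction (3.53% and 3.43% of all genes). The intervals of 3 lay below 0 and of 0 above it (12.7% and 13.7% of all genes), and the median log2 ratio was -0.04. *Irf1*, a direct target of IFN-γ signaling, was at 117 and 140 CPM, with an interval that included no difference. Of 15 MHC class I genes, 15 were measured, 0 were higher and 1 lower by 2-fold, *Nlrc5*, the transcriptional activator of the family (63.1 and 25.7 CPM). The intervals of 7 of the 15 lay below 0 and of 0 above it (12.7% and 13.7% of all genes), with a median log2 ratio of -0.20. *B2m* was at 2706 and 2504 CPM. Of 17 glycolysis genes, 14 were measured and 1 was at least 2-fold higher (3.53% of all genes), *Tpi1* (134 and 274 CPM), and the median log2 ratio was 0.16.

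**Figure D4:**
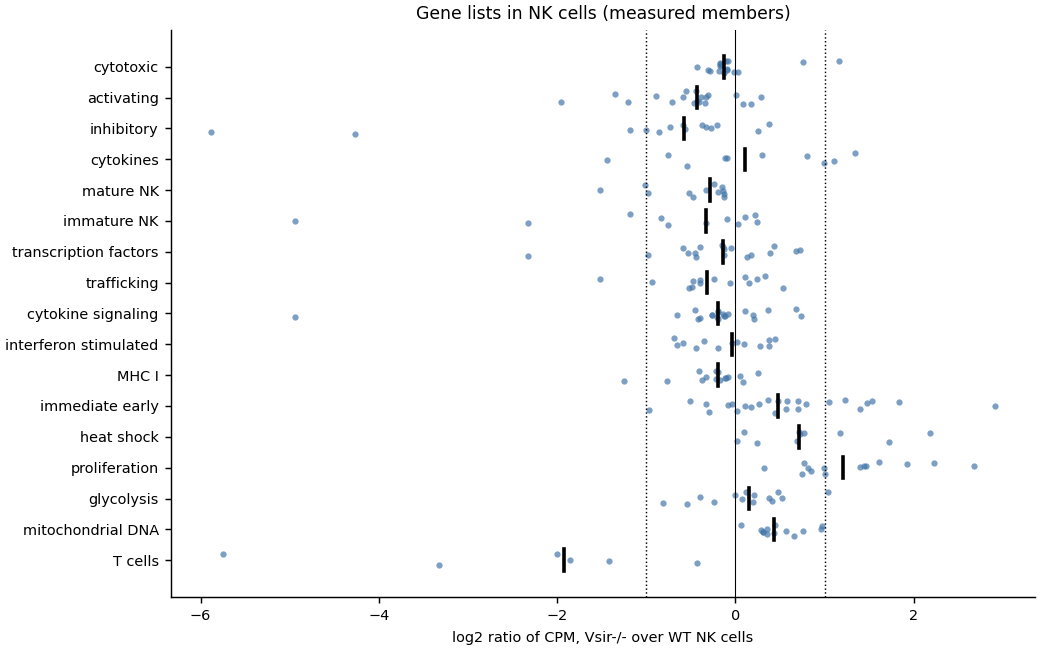
Log2 ratio of CPM, *Vsir-/-* over WT NK cells, for each measured member (points) of 17 gene lists, with the median of each list as a bar and dotted lines at 2-fold. Medians are 1.20 for proliferation, 0.71 for heat shock and 0.47 for immediate early genes, and -0.43 and -0.58 for activating and inhibitory receptors.

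Ranked without lists, the NK-enriched genes that differed most had mixed functions. The 12 with the smallest ratios, among genes with UMIs in both libraries, included the receptor genes *Klra6*, *Klrb1a*, *Klra8* and *Klrc1*. They also included *Sytl3*, a vesicle trafficking gene (515 and 225 CPM), *Rac3*, a small GTPase gene (61.7 and 15.8 CPM), *Tmem163*, *Snap47* and *Dock5*. The 12 with the largest ratios included the replication genes *Rfc4*, *Orc6* and *Pcna*, the G protein regulator *Rgs16* (19.7 and 73.0 CPM) and the phosphodiesterase *Pde2a* (22.9 and 108 CPM). Of these 12, *Tomm6*, *Pabpn1*, *Cox16*, *Wdr33*, *Pde2a*, *Rbbp8* and *Ctla2b* were also at least 2-fold higher in both B cells and neutrophils, and *Rgs16*, *Rfc4*, *Orc6*, *Pcna* and *Dctpp1* were not. Among the 12 with the smallest ratios, *Klra8*, *Klrc1*, *Sytl3* and *Tmem163* were at least 2-fold lower in both clusters, and the others were not. The values of *Klra8* there rested on few UMIs, 11 (WT) and 0 (*Vsir-/-*) in B cells and 10 and 1 in neutrophils.

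Transcripts of other kidney cells differed strongly. Of 36 genes of the tubule list, 8 were measured in NK cells and 7 were at least 2-fold higher in *Vsir-/-* mice, against 3.53% of all genes. The list summed to 132 CPM in WT NK cells and to 4311 CPM in *Vsir-/-* NK cells, with 27 and 1 of the genes at 0. The most abundant was *Napsa* in WT and *Spp1* in *Vsir-/-* NK cells, and the tubule-specific genes *Gpx3*, *Umod* and *Aqp2* were at 0 in WT NK cells and at 545, 211 and 527 CPM in *Vsir-/-* NK cells. Every *Vsir-/-* NK cell held at least 1 UMI of the list, with a median share of 0.312% of its UMIs, against 39.6% of WT NK cells. *Vsir-/-* B cells and neutrophils also carried the list, at 10356 and 5300 CPM. The endothelial list summed to 35.4 and 282 CPM, with 7 genes at 0 in WT and *Pecam1* its most abundant gene there. The macrophage list summed to 106 and 333 CPM. The neutrophil list had the opposite direction, at 371 and 132 CPM, with *S100a9* leading and *Ly6g* at 0 in both. The B cell list summed to 132 and 71.0 CPM and the γδ T cell list to 112 and 61.2 CPM. ILC2 genes were near 0, at 1.86 and 11.8 CPM, as were erythroid genes, at 0 and 3.95 CPM.

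A few cells carried much of this. In 4 *Vsir-/-* NK cells and 1 WT NK cell, at least 1% of the UMIs and at least 20 UMIs came from the tubule, endothelial, macrophage or neutrophil list. A *Vsir-/-* cell with 30280 UMIs held 253 of the 267 *Aqp2* UMIs, together with 414 of *Gzma*. The other *Vsir-/-* cells held 97 UMIs of *Gpx3* (of 29042 in all), 24 of *Emcn* (of 9707) and 37 of *Apoe* (of 6607). The WT cell held 278 UMIs of *S100a8* and 402 of *Gzma*. Deposited files gave no doublet call, and none was made here. Without these 5 cells the log2 ratios were 1.43 for *Ifng*, 1.31 for *Ccl3*, 1.21 for *Fos*, -1.04 for *Klra8* and 2.85 for *Top2a*.

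**Figure D5:**
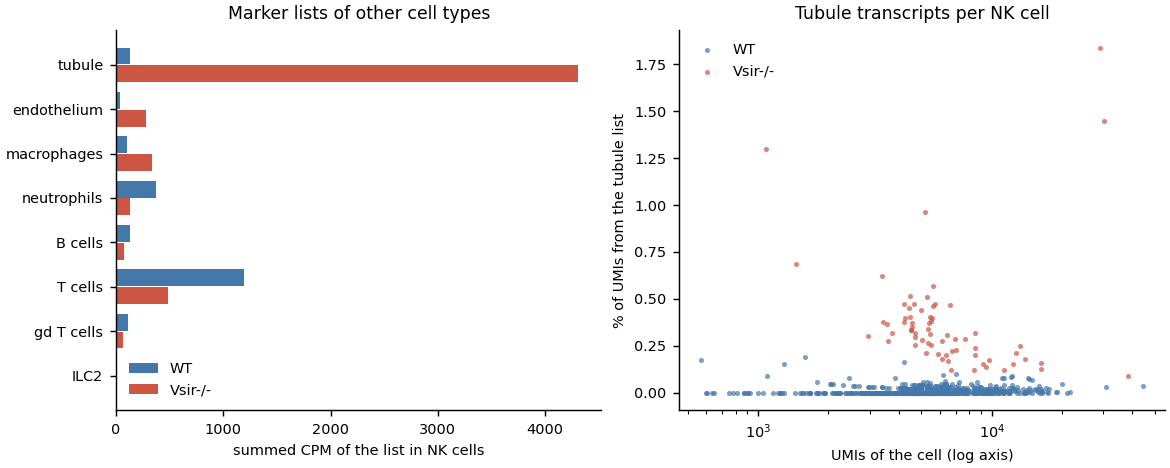
Left, summed CPM of marker lists of other cell types in WT and *Vsir-/-* NK cells (bars from 0). Right, share of UMIs from the tubule list in each NK cell against its UMIs (log axis): the median is 0.312% in *Vsir-/-* cells and 0 in WT cells, and the highest are 1.84% and 0.189%.

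Variation among NK cells was compared between genes by their UMIs per cell. After thinning to 2000 UMIs, the Fano factor (variance over mean, near 1 for counting noise alone) had a median of 1.04 over 4688 genes in WT NK cells. The 15 largest in WT were those of *Gm42418*, *Ccl5*, *Malat1*, *Xcl1*, *S100a9*, *Actb*, *Ccl4*, *Ifi27l2a*, *Gzma*, *S100a8*, *Ccl3*, *Tmsb4x*, *Cd74*, *Ly6c2* and *Ccl9*. *Xcl1* stood at 17.0 with a mean of 0.489 UMIs per cell and a highest cell of 41, and *Ccl4* at 10.7 with a mean of 3.36. After thinning to 1000 UMIs, these Fano factors were 7.80 and 6.20. In *Vsir-/-* NK cells *Ccl4* was at 11.5 and *Xcl1* at 5.62, and 7 of the 15 largest were shared with WT. *Gapdh*, a housekeeping gene, was at 1.27 and 1.46. Among the Ly49 genes, which are expressed by subsets of NK cells, *Klra8* was at 3.65 and 2.69, and *Klra4* at 3.29 and 4.79.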

How the data were processed

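Single cells of 1 WT and 1 *Vsir-/-* kidney library were analysed. The deposited counts were UMIs per gene (20299 symbols) and cell, made by the authors from 10x 3′ libraries (Cell Ranger 3.1.0, R 4.0.3, Seurat 3.2.3 and build mm9, per the submitters' processing notes). The deposited table of cells gave the library, the authors' cluster name, total counts and the percentage of mitochondrial UMIs of each cell, computed by the authors from the same counts. UMAP coordinates were not used. The authors had kept genes found in at least 5 cells and cells with at least 200 UMIs and at most 10% mitochondrial UMIs, and had clustered the cells after merging the libraries. No doublet removal is stated in the sources used here.

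UMIs were summed over the NK cells of each library and given as CPM with exact Poisson intervals. The log2 ratio (*Vsir-/-* over WT, pseudocount 0.5 UMIs) had an exact conditional interval, and shares had Clopper-Pearson intervals (95%). Genes with at least 100 UMIs over both libraries counted as measured, and 2-fold as a call. For shares of cells, UMIs were thinned to 1000 or 2000 per cell, leaving out shallower cells. Named genes were members of 27 lists and, in addition, the 12 largest and smallest ratios among measured and NK-enriched genes and the 15 largest ratios to other cells or Fano factors. The rankings of genes with UMIs in both libraries were added after the values were seen. Members and lists were chosen with earlier results of these data known. Promoters came from RefSeq (GRCm38.p6), whose build differs from that of the files, so no coordinates were carried between them. Python 3.11.15, numpy 2.4.6, scipy 1.17.1, pandas 2.3.3 and matplotlib 3.10.9 were used, and the ratios and intervals were tested on simulated data. There were 14 planned and 4 added alternatives.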

Additional observations from a re-analysis of the deposited data

Results flagged for a closer look

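Transcripts of some genes differed between genotypes in opposite directions in NK and T cells, with counting intervals on either side of 0. Given here are 2 of them, and others, such as *Cd69* and *Jak1*, also met this description. *Ccl3* had a log2 ratio (*Vsir-/-* over WT) of 1.10 in NK cells, against -0.94 (interval -1.22 to -0.68) in EM-like CD4+ and -2.17 (interval -3.39 to -1.29) in EM-like CD8+ T cells. *Ltb*, the gene of lymphotoxin β, had a log2 ratio of -0.76 in NK cells (interval -1.38 to -0.23) and 1.02 in EM-like CD8+ T cells (interval 0.37 to 1.62). In EM-like CD4+ T cells *Ltb* was at 0.08 (interval -0.02 to 0.19). *Ltb* is also a T cell gene, and the T cell list in NK cells summed to 1191 CPM (WT) and 481 CPM (*Vsir-/-*), whose part in the value was not tested. The *Vsir-/-* EM-like CD8+ value of *Ccl3* rested on 9 UMIs in 28 cells. The NK marker *Ncr1* was also lower in the *Vsir-/-* T cell clusters, at 262 and 52.0 CPM in EM-like CD4+ cells and with 244 and 2 UMIs in EM-like CD8+ cells, and its part in these values was not tested. With 1 library per genotype, these differences between cell types were not tested.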

How the results depend on the processing

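No paired analysis was possible because each genotype had 1 library. The direction of the higher or lower values was kept by 21 of 32 named genes under all alternatives, and the heat shock median stayed between 0.54 and 0.87. Called genes that reversed were *Cd3d*, at 2.52 without cells holding a *Cd3d*, *Cd3e* or *Cd3g* UMI (by construction 0 UMIs in both libraries, so that the pseudocount sets the value), *Mki67*, at -0.87 without cells holding 2 or more mitotic genes (it is 1 of these genes, so that the choice of cells in part fixes the value), and *Lamp2*, at -1.64 with the profile of other *Vsir-/-* cells subtracted. That subtraction removed 37.9% of the *Vsir-/-* NK UMIs and gave 630 genes 2-fold lower, with list medians of 0.23 (cytotoxic), -0.0063 (activating), -0.086 (inhibitory) and 0.37 (cytokines). It raised genes far higher in NK cells than in other cells together, so a turn in their sign describes that common rise. The cytokine median was also 0.53 with every cell weighted alike, 0.80 after thinning to 1000 UMIs and 0.64 without cells above 20000 UMIs. Thinning gave 570 genes 2-fold higher and 573 lower, and medians of -0.30 (inhibitory) and 0.74 (immediate early). Leaving out the cell with the most UMIs of each gene gave 101 higher and 310 lower. A minimum of 20 UMIs gave 884 and 628, a minimum of 300 gave 41 and 46, and a filter on mean CPM gave 380 and 109. The proliferation median was 1.46 at 20 UMIs, 0.82 at 300 and 0.26 without the cells holding 2 or more mitotic genes, where the immediate early median was 0.73. The NK share was 14.8% (WT) and 7.67% (*Vsir-/-*) of lymphocyte clusters, 11.9% and 4.19% of cells with at most 5% mitochondrial UMIs, and 11.4% and 4.93% of cells with a *Ptprc* UMI. Where no cause is given, the cause was not tested. Few *Vsir-/-* NK cells limited the precision of all ratios.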
